A study of Homo sapiens with 5 samples.

Results

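The genes described here encode the proteins of base excision, mismatch and nucleotide excision repair, DNA end joining and translesion synthesis. They were measured in MDA-MB-231, a human breast cancer cell line, after 30 h with 2 uM SAHA (suberoylanilide hydroxamic acid, vorinostat), an inhibitor of histone deacetylases, or with the vehicle DMSO. Total RNA was hybridised to 5 single-colour arrays. There were 3 DMSO arrays and 2 SAHA arrays, and no genetic change or agent besides SAHA and DMSO is listed for either group. The extraction text of the labels refers to a transfection that nothing else in them describes. The members were a list of 45 gene symbols, chosen with earlier results of these data known. Each gene was read from its brightest probe set, the set of array probes designed against its transcript. Of the 45, 42 had a probe set assigned to that gene alone, out of 19775 genes measured in all. PMS2, NEIL1 and NHEJ1 had only probe sets assigned to more than 1 gene and were not analysed here.

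DNA repair pathways differ in the damage they read. Glycosylases cut single damaged bases out of DNA, and the remaining gap is opened, filled and sealed by an endonuclease, a polymerase and a ligase. Mismatch repair proteins recognise mispaired bases left by replication, and nucleotide excision repair removes a short strand around bulky or ultraviolet-induced lesions. End joining reconnects the ends of a broken double helix, and translesion polymerases copy past bases that block the replicative enzymes.

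Values are log2 intensities. SAHA was compared with DMSO by limma over all 19775 genes, and a gene was called changed at a Benjamini-Hochberg adjusted p under 0.05. With 3 and 2 arrays the number of arrays limits the precision. The labels do not say whether replicates are separate cultures, and the spread that p-values rest on may therefore be technical. In RNA from a whole culture, fewer cells that express a gene and less RNA per cell cannot be told apart. Pearson's r across genes was 0.9972 to 0.9986 within groups and 0.9791 to 0.9801 between them (genes are no independent replicates). In the ACTB control probe sets, the excess of 3' over 5' signal was 3.29 log2 units on DMSO 1, against 2.04 to 2.22 on the other 4 arrays. The summed intensity of 6 markers of mesenchymal breast cancer cells (VIM, CD44, AXL, MSN, CAV1 and FN1) was 63490 to 64316 in DMSO and 57955 to 62643 in SAHA. That of 4 measured leukocyte markers was 311 to 356 and 396 to 408, that of 3 endothelial markers 273 to 302 and 291 to 309, and that of 6 luminal breast markers was 1150 to 1194 and 1535 to 1570. Among the mesenchymal markers, FN1 was called higher (log2 fold 0.41), AXL and MSN lower (-0.33 and -0.37) and the others neither. Of the luminal markers, ERBB3 was called higher (log2 fold 1.61), GATA3 lower (-0.26) and the others neither. Of the leukocyte markers, CD14 was called higher (0.87), PTPRC lower (-0.34) and the others neither. The part of these markers in the results was not tested.

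Repair genes moved more often down than up. Of the 42 measured members, 18 fell, 4 rose and 20 did not pass the test, with a median log2 fold of -0.16 and a range from -1.52 to 1.38. Over all genes 29.6% were called, 15.6% lower and 14.0% higher, with a median of -0.03. All 42 members lay above the median gene in mean intensity, and in that brighter part of the array 26.7% of genes were called lower and 21.6% higher. The members' shares were 42.9% lower and 9.52% higher. The list was chosen with earlier results of these data known, so these shares are a description only. Without probe sets that can share sequence with other transcripts, 36 members remained, 10 called lower and 4 higher. In that setting 12.3% of all genes were called lower and 12.7% higher. Both SAHA arrays lay below every DMSO array in 21 members and above in 9, against 26.0% and 22.1% of all genes. Of the members, 5 fell and 2 rose at least 2-fold, against 2.54% and 3.21% of all genes.

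The pathways differed in these counts, though no test of the difference between pathways was made. All 4 measured mismatch repair genes fell (median -0.70). Of 9 glycosylases, 4 fell and 1 rose, with a median of -0.02 that was -0.07 without DMSO 1, -0.11 without DMSO 3, -0.03 without SAHA 1, -0.09 without SAHA 2 and -0.20 with probe sets averaged. Of 6 genes that act after the glycosylases or at single-strand breaks, 3 fell and the other 3 did not pass (median -0.43). For comparison, 15.6% of all genes were called lower and 14.0% higher. Among genes above the median level these shares were 26.7% and 21.6%. Nucleotide excision had 3 of 12 genes lower and 1 higher (25% and 8.33%), not far from the shares over all genes. Its median was 0.08, and it was 0.14 without SAHA 1, 0.01 without SAHA 2 and -0.30 when arrays were centred on the poly-A controls, described next. Of 6 end-joining genes, 2 fell and 2 rose (median -0.10; -0.29 without SAHA 1 and 0.09 without SAHA 2), and of 5 translesion and theta polymerases 2 fell and the other 3 did not pass (median -0.38).

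Control RNAs moved beside these genes. The 24 probe sets for polyadenylated control RNAs (poly-A controls) had a median log2 difference of 0.39 between SAHA and DMSO (range 0.17 to 0.66). With each array centred on them, the median gene lay at -0.40, 74.5% of all genes were called lower, and 32 members were called lower and 3 higher. Pathway medians then were -1.07 for mismatch repair, -0.39 for glycosylases, -0.80 for the later base excision steps, -0.30 for nucleotide excision, -0.47 for end joining and -0.75 for the polymerases. This centring moves every gene by the same amount, so it leaves the order of genes and pathways as it was.

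**Figure D1:**
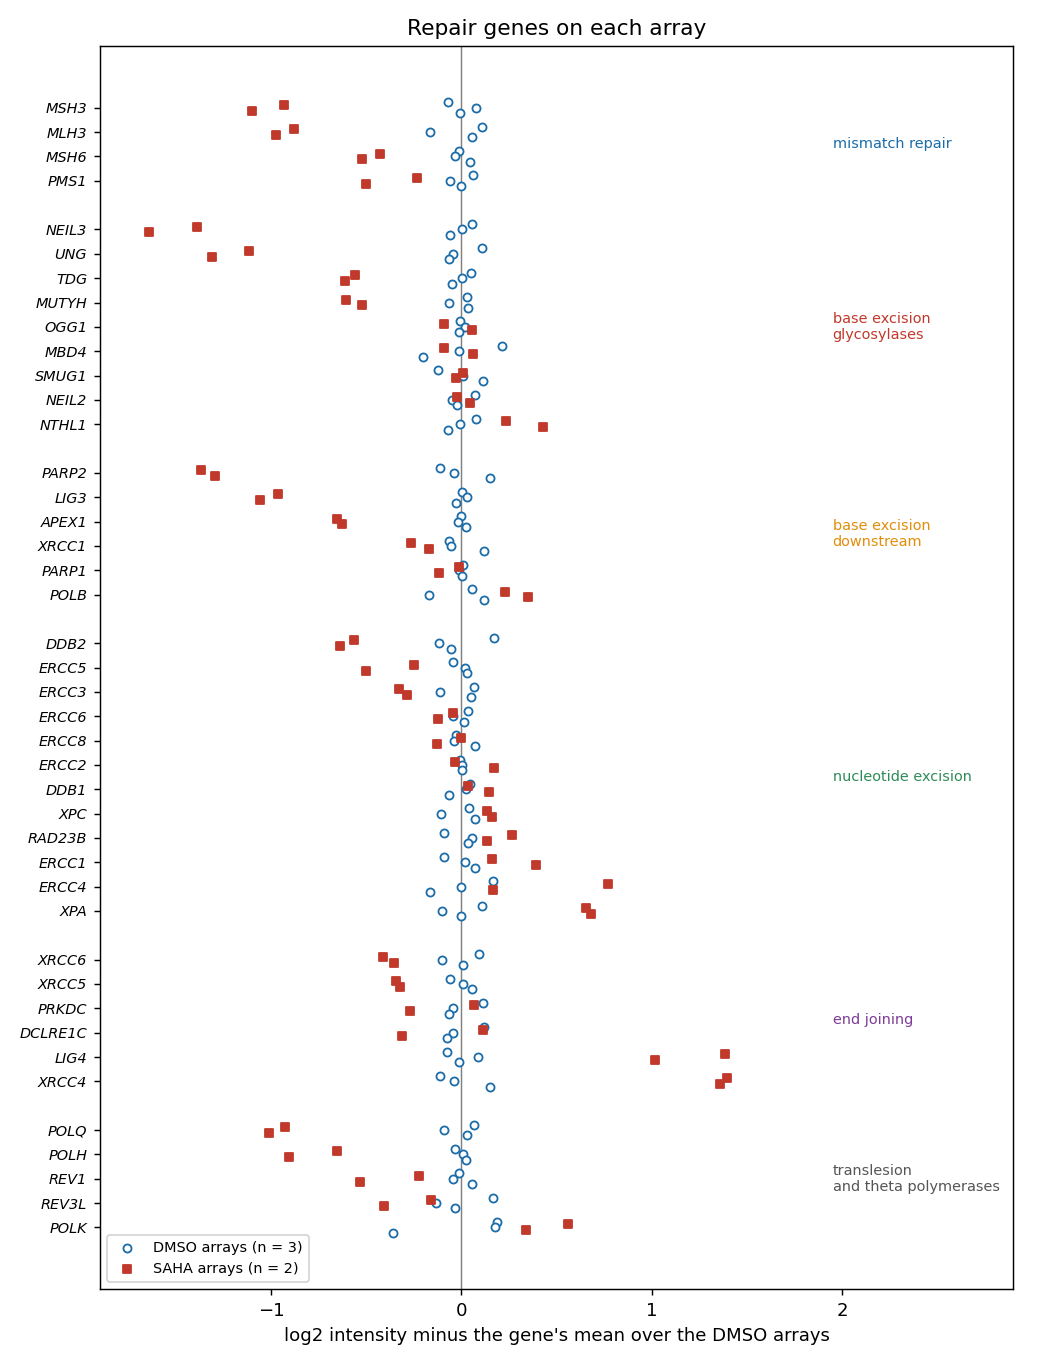
Log2 intensity of each of the 42 repair genes on each array, minus the mean over the DMSO arrays of the gene, by pathway (open circles, 3 DMSO arrays; filled squares, 2 SAHA arrays). All 4 mismatch repair genes have both SAHA arrays below the DMSO arrays, while XRCC4, LIG4 and XPA have both far above.

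Mismatch repair fell as far as it was measured. MSH3 and MSH6 are the alternative partners of the mismatch-binding MutS heterodimers, for insertion-deletion loops and for base mispairs respectively. MSH3 read 9.06, 9.20 and 9.12 on the DMSO arrays and 8.19 and 8.02 on the SAHA arrays. The groups did not overlap, and the log2 fold was -1.02 ± 0.08 (SE; limma adjusted p = 0.00149), the largest fall of the 4 genes on its brightest probe set. That probe set shares sequence with other transcripts. The other 2 probe sets of MSH3 gave -0.37 and -0.03 and were not called, and the one that gave -0.03 was dim (mean 3.95). MSH6 read 12.03, 12.01 and 12.09 in DMSO against 11.62 and 11.52 in SAHA. It was thus lower on both SAHA arrays by a small and repeatable amount, with a log2 change of -0.48 ± 0.05 (SE; limma adjusted p = 0.00387). A second probe set of MSH6 gave the same log2 fold of -0.48, not called over all probe sets (limma adjusted p = 0.06).

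MLH3 and PMS1 are MutL homologues, which act after mismatch recognition, and MLH3 also works in meiotic crossing-over. MLH3 read 9.18, 8.91 and 9.13 in DMSO and 8.20 and 8.10 in SAHA. DMSO 2 was the low control, and still lay above both SAHA arrays. The log2 fold was -0.93 ± 0.10 (SE; limma adjusted p = 0.00352), and the other 2 probe sets gave -0.44 and -0.43, the second of them called. PMS1 read 10.34, 10.22 and 10.27 in DMSO and 10.04 and 9.77 in SAHA. SAHA 2 was well below SAHA 1, and the log2 change of -0.37 ± 0.09 (SE; limma adjusted p = 0.0459) only just passed the test. Leaving out any array but SAHA 1 removed the call, with limma adjusted p from 0.0918 to 0.15. A dimmer probe set of PMS1 gave -1.23 (limma adjusted p = 0.00223 over all probe sets).

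Among the glycosylases, those that fell most were NEIL3 and UNG. NEIL3 removes oxidised bases, acts on single-stranded DNA and opens certain interstrand crosslinks, and is known for expression in dividing cells. It read 10.24, 10.19 and 10.12 in DMSO and 8.79 and 8.54 in SAHA. Both SAHA arrays lay more than 1 log2 unit below every control. The log2 change of -1.52 ± 0.09 (SE; limma adjusted p = 0.001) was the lowest of all 42 members, a 2.86-fold fall, and only 0.607% of all genes had a fold as low or lower. UNG, which removes uracil from DNA and has nuclear and mitochondrial forms, read 11.45, 11.30 and 11.28 in DMSO against 10.23 and 10.03 in SAHA. The groups were clearly apart, with a log2 change of -1.21 ± 0.09 (SE; limma adjusted p = 0.00146). Its single probe set shares sequence between transcripts, so the forms were not told apart here.

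The bases before the NEIL3 start are shown because NEIL3 had the lowest fold. They are from RefSeq (GRCh38.p14, chr4:177309624-177309873, plus strand) and end at the base before the start. Capitals mark CCAAT (NF-Y), TTTGAA (CHR, a cell cycle element) and GGGCGG (Sp1) or its reverse complement.
NEIL3: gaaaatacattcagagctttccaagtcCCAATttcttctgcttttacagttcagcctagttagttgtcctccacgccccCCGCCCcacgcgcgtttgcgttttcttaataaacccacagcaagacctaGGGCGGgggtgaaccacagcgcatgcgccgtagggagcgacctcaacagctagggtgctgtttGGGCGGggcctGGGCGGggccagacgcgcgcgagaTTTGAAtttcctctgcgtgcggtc
The stretch holds 6 motif matches, with TTTGAA at position -24 and CCAAT at position -223.

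TDG and MUTYH fell less. TDG removes thymine or uracil opposite guanine and takes part in active DNA demethylation. It read 10.64, 10.59 and 10.54 in DMSO and 10.03 and 9.97 in SAHA, a log2 change of -0.59 ± 0.05 (SE; limma adjusted p = 0.00196). All its arrays were tightly grouped. A dimmer TDG probe set gave 0.19, and with both averaged the log2 fold was -0.20 and not called (limma adjusted p = 0.322). MUTYH, which removes adenine paired with oxidised guanine, read 8.47, 8.38 and 8.48 in DMSO against 7.83 and 7.92 in SAHA. The log2 fold was -0.57 ± 0.06 (SE; limma adjusted p = 0.00289), with a gap between the groups several times the spread within either.

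The other glycosylases were near 0 or higher. NTHL1, which removes oxidised pyrimidines, read 8.21, 8.13 and 8.07 in DMSO and 8.37 and 8.57 in SAHA. It was the only glycosylase that rose, by 0.33 ± 0.08 on the log2 scale (SE; limma adjusted p = 0.0394). Leaving out any single array removed this call, with limma adjusted p from 0.0537 to 0.134, and the log2 fold turned to -0.04 when arrays were centred on the poly-A controls. For 4 glycosylases the SAHA and DMSO arrays overlapped. The log2 fold was -0.01 for SMUG1 (uracil), with a 95% interval of -0.22 to 0.20, and -0.02 for OGG1 (oxidised guanine), with an interval of -0.17 to 0.14. It was -0.01 for MBD4 (thymine and uracil at methylated CpG), with an interval of -0.38 to 0.35, and 0.01 for NEIL2 (oxidised pyrimidines), with an interval of -0.14 to 0.16. A second OGG1 probe set was called lower (-0.48, limma adjusted p = 0.0318 over all probe sets), so the OGG1 value depends on the probe set read. So does that of SMUG1. A dimmer SMUG1 probe set gave 0.47 with both SAHA arrays above the controls, not called (limma adjusted p = 0.0555 over all probe sets).

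Of the enzymes that follow the glycosylases, PARP2, LIG3 and APEX1 fell. PARP2 is a poly(ADP-ribose) polymerase activated by DNA breaks. It read 10.63, 10.71 and 10.90 in DMSO and 9.38 and 9.45 in SAHA. Both SAHA arrays were more than 1 log2 unit below all controls, and the log2 fold was -1.33 ± 0.09 (SE; limma adjusted p = 0.00123). All 3 PARP2 probe sets were called lower, at -1.29 to -1.36. All 3 are of the kind that shares sequence with other transcripts, so their agreement is no independent support. PARP1, the more abundant enzyme of this kind and the main source of poly(ADP-ribose) after damage, read 11.09, 11.07 and 11.08 in DMSO and 11.07 and 10.96 in SAHA. Its log2 fold was -0.06 (95% interval -0.19 to 0.06; limma adjusted p = 0.39), an interval that does not overlap that of PARP2 (-1.57 to -1.09). The difference between the pair was not tested.

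LIG3, the ligase that seals single-strand breaks and serves mitochondria, read 9.32, 9.35 and 9.29 in DMSO and 8.36 and 8.26 in SAHA. Its log2 fold was -1.01 ± 0.05 (SE; limma adjusted p = 0.000661), and 3 of its 6 probe sets were called lower, none higher. XRCC1, the scaffold that LIG3 binds, read 8.29, 8.29 and 8.47 against 8.08 and 8.18. Both SAHA arrays lay below the controls, yet the log2 fold of -0.22 ± 0.08 did not pass the test (SE; limma adjusted p = 0.109). APEX1, the endonuclease that cuts at sites left without a base, read 12.22, 12.21 and 12.25 in DMSO and 11.57 and 11.60 in SAHA. It had among the smallest spreads of the members, with a log2 change of -0.64 ± 0.04 (SE; limma adjusted p = 0.000972). POLB, the gap-filling polymerase, was 0.29 ± 0.10 (SE; limma adjusted p = 0.112) with both SAHA arrays above the controls; it was -0.08 with centring on the poly-A controls.

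Most nucleotide excision genes did not pass the test. XPA, which verifies the lesion and organises the incision complex, was the exception that rose. It read 10.36, 10.15 and 10.25 in DMSO and 10.91 and 10.94 in SAHA. Both SAHA values were nearly equal and above all controls, with a log2 change of 0.67 ± 0.07 (SE; limma adjusted p = 0.00383). Centred on the poly-A controls it was 0.30 and still called (limma adjusted p = 0.0268). DDB2, the ultraviolet damage sensor of the DDB complex, read 9.29, 9.01 and 9.07 in DMSO and 8.56 and 8.49 in SAHA. It fell by 0.60 on the log2 scale (SE 0.10; limma adjusted p = 0.0125), and its partner DDB1 was 0.09 (95% interval -0.07 to 0.25).

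The other called members of this pathway changed little. ERCC5 (XPG), the nuclease that cuts on the 3' side of a lesion, read 8.78, 8.84 and 8.85 in DMSO and 8.58 and 8.32 in SAHA. Its log2 fold was -0.37 ± 0.09 (SE; limma adjusted p = 0.035). ERCC3 (XPB), a helicase of transcription factor IIH, read 9.78, 9.61 and 9.77 in DMSO and 9.39 and 9.43 in SAHA, with a log2 change of -0.31 ± 0.07 (SE; limma adjusted p = 0.0317). With 1 array left out, which leaves fewer arrays to estimate the spread, the log2 folds stayed negative, at -0.66 to -0.52 for DDB2, -0.50 to -0.25 for ERCC5 and -0.36 to -0.28 for ERCC3, but calls were lost. The call of DDB2 was lost without DMSO 3, SAHA 1 or SAHA 2 (limma adjusted p up to 0.0929), that of ERCC5 without DMSO 1, DMSO 2 or DMSO 3 (up to 0.131), and that of ERCC3 without any array but DMSO 2 (up to 0.157). The pathway thus had 1 lower gene without DMSO 1, SAHA 1 or SAHA 2, and all 3 calls were lost without DMSO 3. With SAHA 1 left out, the helicase ERCC2 was called higher besides XPA (0.17; limma adjusted p = 0.0333).

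Of the 8 genes of this pathway that did not pass, 6 had positive values. ERCC1 was 0.27 ± 0.09 (SE; limma adjusted p = 0.0978) and its nuclease partner ERCC4 (XPF) 0.47 ± 0.21 (SE; limma adjusted p = 0.188). ERCC4 read 8.54 on SAHA 1 and 7.94 on SAHA 2, so its value rested on SAHA 1 and was 0.17 without it. XPC, which detects lesions across the genome, was 0.15, and its partner RAD23B was 0.20 (limma adjusted p = 0.202 and 0.111). Other RAD23B probe sets gave 0.22, -0.14 and 0.05, none of them called. Centred on the poly-A controls, XPC, RAD23B and ERCC1 had negative values (-0.23, -0.17 and -0.10), as did DDB1 and ERCC2 (-0.29 and -0.31). The transcription-coupled factors ERCC6 (CSB) and ERCC8 (CSA) were -0.09 and -0.07, with 95% intervals of -0.22 to 0.04 and -0.23 to 0.10, and ERCC2 was 0.07 (interval -0.12 to 0.25).

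**Figure D2:**
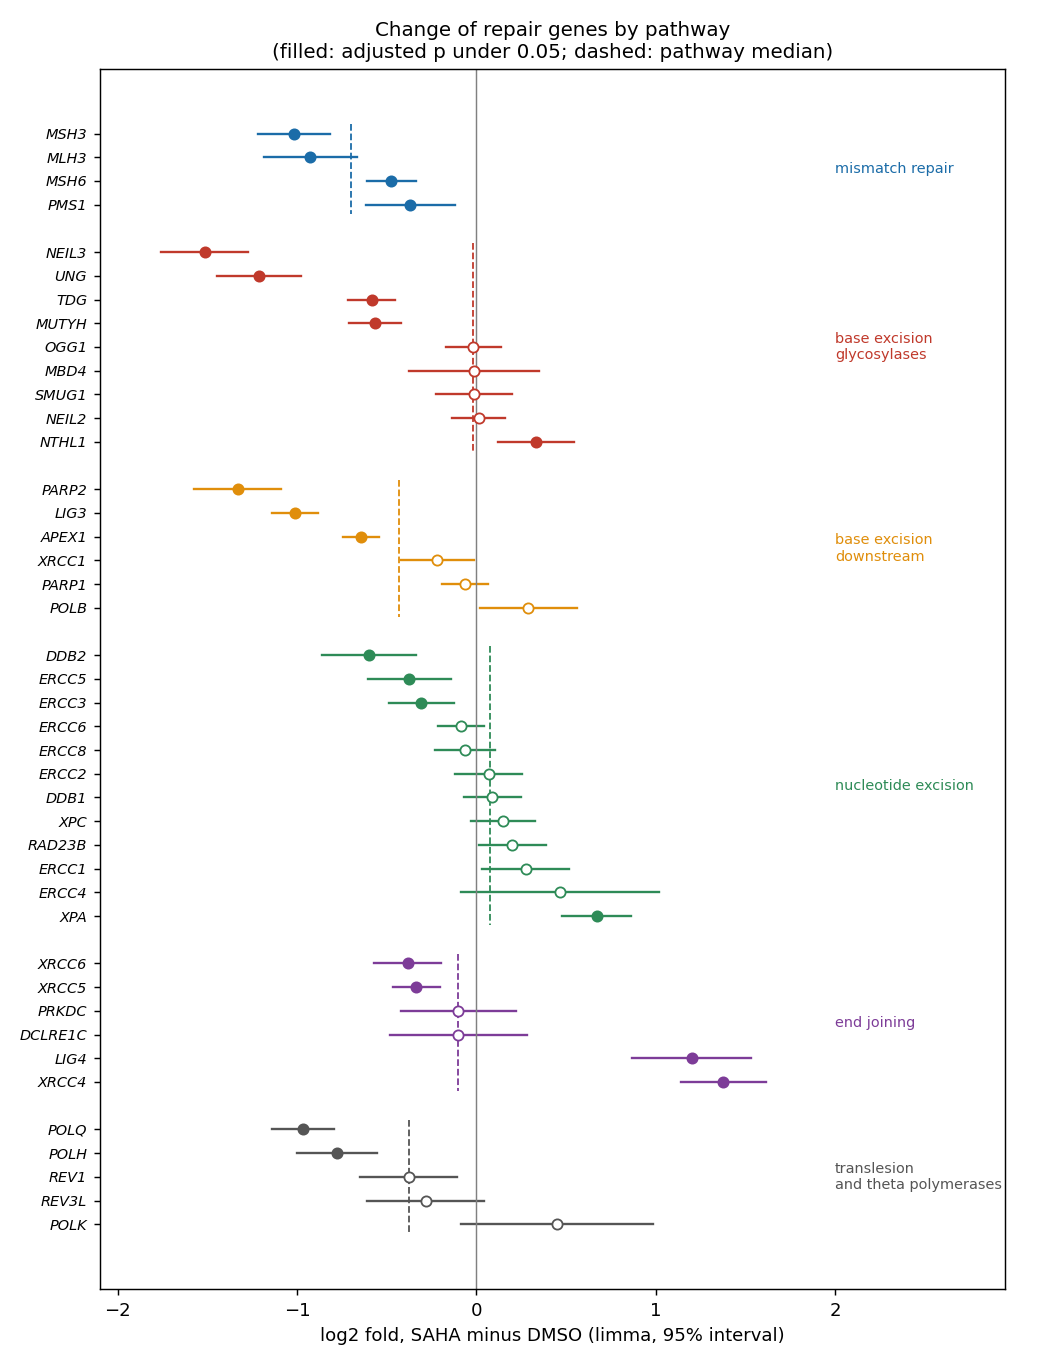
Log2 fold of each repair gene (SAHA minus DMSO) with its 95% interval from limma, filled where adjusted p was under 0.05, with the pathway median as a dashed line. Medians run from -0.70 in mismatch repair to 0.08 in nucleotide excision, and XRCC4 (1.38) and LIG4 (1.20) stand apart from the rest of end joining.

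End joining split between its ligase complex and its end-binding proteins. XRCC4 and LIG4 form the complex that seals double-strand breaks, XRCC4 as the scaffold and LIG4 as the ligase. XRCC4 read 9.19, 9.27 and 9.45 in DMSO and 10.70 and 10.66 in SAHA. Both SAHA arrays were more than 1 log2 unit above all controls, and the log2 change of 1.38 ± 0.09 (SE; limma adjusted p = 0.00112) was the highest of the members. All 4 XRCC4 probe sets were called higher, at 1.07 to 1.61. LIG4 read 7.28, 7.44 and 7.34 in DMSO and 8.74 and 8.37 in SAHA, a log2 change of 1.20 ± 0.13 (SE; limma adjusted p = 0.00346). Its SAHA arrays differed more than its controls did, and its second probe set was also called higher (0.86). Both genes kept their calls with each array left out in turn, and also when arrays were centred on the poly-A controls (1.00 and 0.83).

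The Ku subunits XRCC5 (Ku80) and XRCC6 (Ku70), which bind broken ends first, moved the other way by a small amount. XRCC5 read 12.64, 12.71 and 12.76 in DMSO and 12.36 and 12.38 in SAHA, with a log2 change of -0.33 ± 0.05 (SE; limma adjusted p = 0.00928). XRCC6 read 13.11, 12.91 and 13.02 in DMSO and 12.60 and 12.66 in SAHA, with a log2 change of -0.38 ± 0.07 (SE; limma adjusted p = 0.0178). In neither gene did the groups overlap, and with 1 array left out the log2 folds were -0.36 to -0.31 for XRCC5 and -0.43 to -0.34 for XRCC6. XRCC5 lost its call without SAHA 1 (limma adjusted p = 0.0598) and XRCC6 without DMSO 3, SAHA 1 or SAHA 2 (0.081, 0.116 and 0.0793), so 1 lower gene was left without DMSO 3 or SAHA 2, and both calls were lost without SAHA 1. The brightest XRCC5 probe set shares sequence, and with the probe sets averaged its log2 fold was -0.13 (limma adjusted p = 0.11). Read from its brightest probe set without shared sequence, it was 0.06 and not called (limma adjusted p = 0.789). That probe set was far dimmer (mean 6.08 against 12.57) and also enters the average.

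PRKDC, the kinase that Ku recruits, and DCLRE1C (Artemis), the nuclease it activates, did not pass. Both were -0.10, with 95% intervals of -0.42 to 0.22 and -0.48 to 0.28. In each, SAHA 1 lay among the controls and SAHA 2 below them, and the values were -0.27 and -0.31 without SAHA 1 but 0.07 and 0.11 without SAHA 2. A second DCLRE1C probe set was called lower (-0.51; limma adjusted p = 0.0386 over all probe sets).

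The sequences between the starts of XRCC4 and LIG4 and those of their neighbours are shown, since both genes rose and each begins close to a gene on the other strand. They are from RefSeq (GRCh38.p14), chr5:83077395-83077546 on the plus strand for XRCC4 and chr13:108218350-108218391 on the minus strand for LIG4, and end at the base before each start. Capitals mark the only match to a searched motif, GGGCGG.
XRCC4: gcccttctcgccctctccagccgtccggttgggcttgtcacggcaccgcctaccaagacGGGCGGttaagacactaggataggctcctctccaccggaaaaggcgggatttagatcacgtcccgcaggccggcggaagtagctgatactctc
LIG4: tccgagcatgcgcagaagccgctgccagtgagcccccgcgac
Across these stretches, TMEM167A neighbours XRCC4 and ABHD13 neighbours LIG4.

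Members with a neighbour that starts within 1000 bases on the other strand could be read together with it. There were 13 such pairs with both genes measured. In 8 of them the member was called, and in 6 of these 8 the neighbour was called in the same direction, while the other 2 neighbours did not pass. In the 5 pairs with an uncalled member, 2 neighbours were called lower, LSM3 beside XPC (-0.33; limma adjusted p = 0.0145) and NDUFAF2 beside ERCC8 (-0.17; limma adjusted p = 0.0309). Of all genes, 29.6% were called. Most of these neighbours were brighter than the median gene, and in that part of the array 26.7% of genes were called lower and 21.6% higher. ABHD13, with its start 43 bases from that of LIG4, rose by 0.77 ± 0.15 (SE; limma adjusted p = 0.0186), and TMEM167A by 0.33 ± 0.07 (SE; limma adjusted p = 0.0264). TOE1 beside MUTYH fell by 0.69, OSGEP beside APEX1 by 0.69, ORMDL1 beside PMS1 by 0.63 and XPO5 beside POLH by 0.35 on the log2 scale. DESI1 beside XRCC6 was -0.16 and TSC2 beside NTHL1 -0.31, and neither passed (limma adjusted p = 0.211 and 0.106). The pairs were listed after earlier results were known, and no test of their likeness was made.

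POLQ and POLH fell among the specialised polymerases. POLQ, polymerase theta, joins ends through short matching stretches and is a back-up to the Ku-dependent route. It read 9.55, 9.39 and 9.51 in DMSO against 8.56 and 8.47 in SAHA. The groups lay far apart, with a log2 change of -0.97 ± 0.07 (SE; limma adjusted p = 0.00117), and a dimmer probe set gave -0.70 without a call. POLH, polymerase eta, copies past ultraviolet-induced dimers. It read 9.32, 9.36 and 9.37 in DMSO and 8.70 and 8.45 in SAHA, a log2 change of -0.78 ± 0.09 (SE; limma adjusted p = 0.00394). Of its 6 probe sets, 2 were called lower and none higher.

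The bases before the POLQ start are shown beside those of NEIL3, as both genes fell and both hold the TTTGAA element. They are from RefSeq (GRCh38.p14, chr3:121545989-121546238, minus strand), with TTTGAA (as its reverse complement) and GGGCGG in capitals.
POLQ: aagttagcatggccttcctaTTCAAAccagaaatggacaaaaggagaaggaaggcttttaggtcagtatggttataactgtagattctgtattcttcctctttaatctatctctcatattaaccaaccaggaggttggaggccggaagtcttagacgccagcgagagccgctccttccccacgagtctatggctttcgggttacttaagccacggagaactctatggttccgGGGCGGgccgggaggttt
In POLQ the element lies at position -230, with another in the bases after the start, at position 4. TTTGAA lay in 21.6% of members and 18.2% of all genes with a window. It was held by 5 members that fell and by 3 that did not (XRCC1, ERCC1 and ERCC6). Its part in the falls was not tested.

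REV1, REV3L and POLK did not pass. REV1, the scaffold of translesion synthesis, read 9.77, 9.74 and 9.84 in DMSO and 9.56 and 9.25 in SAHA, with a log2 fold of -0.38 ± 0.10 just outside the threshold (SE; limma adjusted p = 0.0553), and it was called without SAHA 1 (-0.53; limma adjusted p = 0.0266). All 4 REV1 probe sets were negative (-0.38 to -0.23), and with them averaged the log2 fold was -0.31 and called (limma adjusted p = 0.0245). REV3L, the catalytic subunit of polymerase zeta, was -0.28 (95% interval -0.61 to 0.04), and a dimmer probe set gave 0.23 without a call. POLK, polymerase kappa, was 0.45 (interval -0.08 to 0.98). DMSO 3 was its low control at 9.39 against 9.94 and 9.93 on the other controls, and without it the value was 0.27. The polymerase median was -0.53 without SAHA 1 and -0.22 without SAHA 2, so it depended on which SAHA array was read.

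Most called members kept their call when any 1 array was left out. Of the 22 called genes, 15 kept it in all 5 fits, namely MSH3, MSH6, MLH3, UNG, TDG, MUTYH, NEIL3, APEX1, LIG3, PARP2, XPA, XRCC4, LIG4, POLH and POLQ. PMS1, NTHL1, ERCC3, ERCC5, DDB2, XRCC5 and XRCC6 lost it at least once. Across probe sets, 14 members had 1 probe set and 28 had more. Among the 12 of these 28 whose brightest probe set was called in the fit over all probe sets, 6 had another probe set called the same way, and no member had probe sets called in opposite directions.

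**Figure D3:**
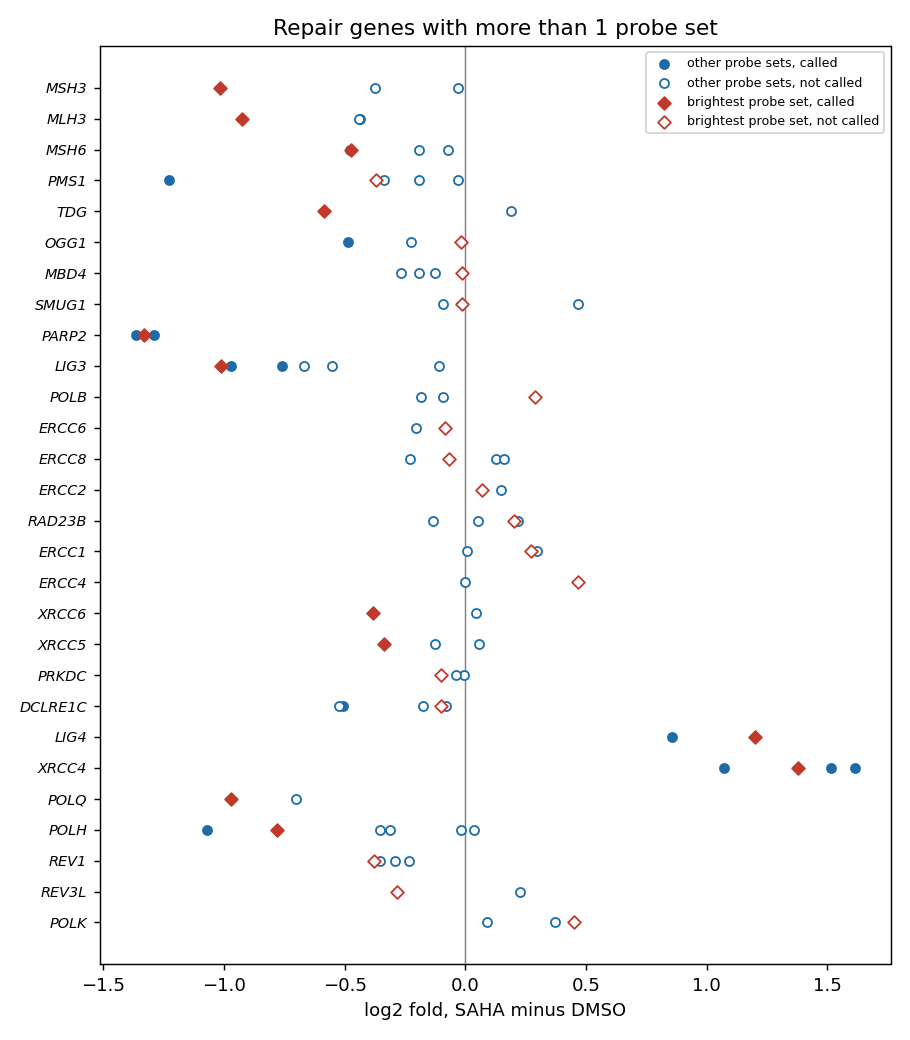
Log2 fold of every probe set of the 28 repair genes that have more than 1 (diamonds, the brightest; circles, the others; filled where adjusted p over all probe sets was under 0.05). All probe sets of PARP2, XRCC4 and LIG4 are called in 1 direction. Those of MSH3 disagree in size, and those of TDG and XRCC5 disagree in sign as well. The PARP2 probe sets are all of the kind that shares sequence with other transcripts.

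Of 40 listed partner genes that are no members, 37 were measured, 9 fell and 4 rose, with a median log2 fold of 0.0026. These shares, 24.3% lower and 10.8% higher, lie below those of genes above the median level (26.7% and 21.6%), where 34 of the 37 partners lie. The largest falls were those of LIG1, the ligase of replication and long-patch repair (-1.45 ± 0.14, SE), TDP1, which frees trapped topoisomerase ends (-1.38 ± 0.04, SE), the sliding clamp PCNA (-1.11 ± 0.10, SE) and EXO1, the exonuclease of mismatch repair (-1.03 ± 0.15, SE). Those that rose were the XPC-binding centrin CETN2 (0.64), the transcription-coupled factor UVSSA (0.58), GTF2H4 of transcription factor IIH (0.53) and CCNH, the cyclin of the kinase in that factor (0.27). Other measured genes of that factor did not pass, with log2 folds of -0.04 for GTF2H1, -0.41 for GTF2H3, 0.08 for GTF2H5, 0.15 for CDK7 and 0.01 for MNAT1, and neither did XAB2 (0.09) and USP7 (-0.19) of transcription-coupled repair. The limma adjusted p of these 8 partners ran from 0.000483 (TDP1) to 0.0437 (UVSSA). Only 2 partners were called higher without DMSO 1, DMSO 2 or SAHA 1, and 1 after centring on the poly-A controls.

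**Figure D4:**
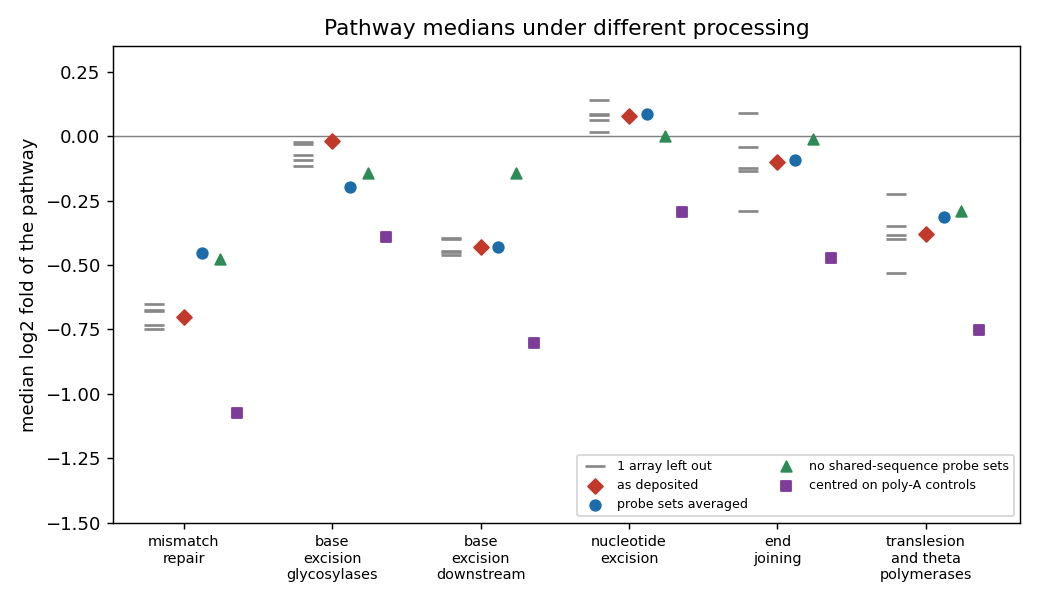
Median log2 fold of each repair pathway as deposited, with probe sets averaged, without shared-sequence probe sets, with centring on the poly-A controls and with each array left out (grey bars). Mismatch repair is negative in every setting drawn (-1.07 to -0.45), and nucleotide excision is positive in all but the poly-A centring (-0.30).

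Promoter motifs were searched on both strands in RefSeq windows from 250 bases before to 50 after each start, and 37 of the 42 measured members had a window. TTTCGCGC or TTTGGCGC (E2F; the ends of both can overlap) lay in 2 members, MSH3 and XRCC6, or 5.41%, against 1.4% of all 27305 genes with a window. E2F factors bind such sites in genes of DNA replication. The XRCC6 match lies after the start. CCAAT (NF-Y) lay in 51.4% of members and 39.7% of all genes, TTTGAA (CHR) in 21.6% and 18.2%, and GGGCGG (Sp1) in 86.5% and 48.3%. Among the 17 members with a window that fell, 9 held CCAAT, 5 TTTGAA and 13 GGGCGG, and among the other 20 these numbers were 10, 3 and 19. A match is a description of letters and not of binding, and genes with several starts had several windows.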

How the data were processed

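The authors deposited 1 table of intensity values on a linear scale, made with RMA in R 2.12 per the submitters' processing notes, which normalizes quantiles across arrays. Log2 was taken as the planned first step for a linear table, without further normalization. Probe sets (54675) were named through the platform annotation, and 41091 with 1 gene were kept. The brightest by mean log2 stood for its gene. Limma 3.58.1 in R 4.3.3 (lmFit, eBayes, no covariates, two-sided; 3 residual and 1.62 prior degrees of freedom) was adjusted over 19775 genes, threshold 0.05. A second fit covered all 41091 probe sets. No detection calls were used, so signal over background of a probe set is unknown. On simulated data with the same layout (19775 genes), 99% of 100 genes with a log2 change of 1 and 64% of 100 with 0.5 were recovered. Of the calls there, 6.32% were of unchanged genes. The simulation had independent normal noise, no array-wide shift and only 174 calls, against 5849 calls (29.6%) in the data. These rates therefore need not hold for the data. Members, pathways, partner lists and motifs were chosen with earlier results of these data known. Full values went to up to 4 called members per pathway with the largest absolute log2 fold, and partners were named likewise, 4 in each direction. PARP1, XRCC1, NTHL1, REV1, ERCC4 and POLK also got array values, and neighbour pairs were chosen after values were seen. Promoter sequences are from RefSeq GRCh38.p14, and figures were drawn with matplotlib 3.10.9. Alternatives covered probe set choice, scaling, dim genes, variance model, left-out arrays, a replicate block and a threshold of 0.01.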

Additional observations from a re-analysis of the deposited data

How the results depend on the processing

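With quantile normalization again, centring on the median gene, no dim genes, trended robust variance or array weights, no count of calls moved by over 1.5 times, and the nucleotide excision median was 0.049 with quantile normalization again, inside its range with single arrays left out. With probe sets averaged, the mismatch repair median was -0.45 and the glycosylase median -0.20. Without shared-sequence probe sets 36 members remained and 10 were called lower. The members lost were MLH3, UNG, TDG, MUTYH, APEX1 and PARP2, which had only such probe sets and had all been called lower. MSH3 lost its call (-0.029), and XRCC5 turned to 0.058 without a call (limma adjusted p = 0.789), both read from far dimmer probe sets. Medians in this setting were -0.48 (mismatch repair), -0.14 (glycosylases), -0.14 (later base excision), 0.0011 (nucleotide excision) and -0.010 (end joining). With centring on the poly-A controls 14740 genes were called lower and 1380 higher, 32 members lower, and 27 partners lower and 1 higher. The medians were -1.07, -0.39, -0.80, -0.30, -0.47 and -0.75 in the order of the pathways above, and NTHL1 (-0.040), NEIL2 (-0.36), ERCC2 (-0.31) and DDB1 (-0.29) reversed. An unmoderated test called 1831 genes lower and 1538 higher and 2 partners higher, and a threshold of 0.01 called 1773, 1544 and 1. For these, the cause was not tested, beyond the fewer genes or stricter rule each setting itself brings.

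With each array left out in turn, all genes called lower numbered 1985 to 2797 and higher 1769 to 2234, members lower 13 to 16 and higher 3 to 4, and partners lower 7 to 10 and higher 2 to 3. The pathway medians ranged from -0.75 to -0.65 (mismatch repair), -0.11 to -0.022 (glycosylases), -0.46 to -0.40 (later base excision), 0.015 to 0.14 (nucleotide excision), -0.29 to 0.088 (end joining) and -0.53 to -0.22 (polymerases). Replicate numbers 1 and 2 occur in both groups, but nothing says that they pair samples, and deviations from the group means correlated at 0.15 for number 1 and -0.07 for number 2. With the replicate block, which leaves 1 residual degree of freedom, 1316 genes were called lower and 1262 higher, 9 members lower and 1 higher, 2 partners higher, and the glycosylase median was -0.11. The number of arrays and the unknown signal over background limit values of dim probe sets.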
